A study of Mus musculus with 2 samples.

Results

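The genes described here are the translation initiation and elongation factors of the mouse, taken by their symbols: every gene whose symbol begins with Eif and a digit, or with Eef1 or Eef2. The rule found 69 members among 26602 named genes. Of these, 15 belong to the Eif2 family, 14 to Eif3, 17 to Eif4, 4 to Eif5 and 13 to the elongation factors Eef1 and Eef2, and 6 are Eif1 or Eif6 genes. The rule goes by name, so it also takes in kinases, methyltransferases and repressors that act on the factors. The samples were CT26 tumours, a colon carcinoma line from BALB/c mice grown under the skin of wild-type BALB/c mice. FuOXP NP mice received nanoparticles carrying FuOXP, a conjugate of 5-fluorouracil and oxaliplatin, at 10 mg/kg into a vein, and Empty NP mice received the empty particles. Both groups were injected 3 times at 5-day intervals from a tumour size of about 200 mm3, with the tumours collected 24 hours after the final dose. Although 3 mice are named for each treatment, each treatment has a single column of values, and nothing says whether tumours were pooled.

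Initiation begins when eIF2 carries the initiator tRNA to the small ribosomal subunit, with eIF1, eIF1A, eIF3 and eIF5 bound beside it. The cap-binding complex eIF4F, made of eIF4E, the helicase eIF4A and the scaffold eIF4G, brings this assembly to the messenger RNA, and eIF5B joins the large subunit at the start codon. During elongation eEF1A delivers aminoacyl-tRNAs, the eEF1B subunits recharge eEF1A with GTP, and eEF2 moves the ribosome along. Phosphorylation of eIF2 by stress kinases lowers initiation in general, and growth signals through mTOR raise cap-dependent initiation by releasing eIF4E from its binding proteins. Transcripts of the elongation factors and of a few eIF3 subunits begin with a terminal oligopyrimidine (TOP) tract, which ties their translation to mTOR.

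The sequences at the annotated starts of 4 members are shown because the TOP tract is a feature of the transcript's start. They come from RefSeq on GRCm38.p6 and run from 10 bases before to 20 bases from the annotated start, on the strand of the gene. Eef1a1 lies at chr9:78481705-78481734 on the minus strand, Eif3f at chr7:108934405-108934434 on the plus strand, Eef2 at chr10:81176621-81176650 on the plus strand and Eif4g1 at chr16:20672717-20672746 on the plus strand. Capitals mark a run of at least 5 C or T bases that opens with C and begins within 5 bases of the annotated start.
Eef1a1: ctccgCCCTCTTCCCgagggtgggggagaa
Eif3f: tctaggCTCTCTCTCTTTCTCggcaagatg
Eef2: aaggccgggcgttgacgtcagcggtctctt
Eif4g1: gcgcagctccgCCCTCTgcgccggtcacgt
The runs are 10 bases in Eef1a1, 15 bases in Eif3f and 6 bases in Eif4g1, and the search found none at the annotated start of Eef2. The Eef2 window ends in a run of C and T bases that begins beyond the 5 bases searched. A miss in this search therefore does not show that a transcript lacks a TOP tract. Start sequences were matched for 53 members, of which 15, or 28.3%, held such a run on the transcript strand, against 21.2% of 27025 genes. Among the 8 factors listed as TOP transcripts, 4 had a matched start and 2 of those held the run, so the annotated starts show the class at most in part. These 2 runs begin before the annotated start, by 5 bases in Eef1a1 and 4 in Eif3f. Whether they are the TOP tracts of these transcripts was not tested. Of the genes that passed the filter below and had a matched start, 23.5% held the run, and Eif4g1, which is not among the TOP factors, holds it too.

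Values are TPM, transcript abundances per length, expressed as shares of each library. With 1 library per treatment nothing can be tested, so higher and lower describe these libraries only. In bulk tumour RNA, fewer cells of a type and less RNA per cell cannot be told apart. Differences are log2((FuOXP NP + 1)/(Empty NP + 1)), also given relative to the median of the 9488 named genes whose mean over both libraries reached 1 TPM. That median gene was 2.71-fold lower in FuOXP NP, at -1.44. TPM values are shares of a total, and the 20 most abundant rows held 81.3% of the FuOXP NP total and 47.2% of the Empty NP total. Read numbers were recovered from the steps between low TPM values. They are small, with a median over the measured members of 12 reads in FuOXP NP and 13.5 in Empty NP, and intervals below are exact 95% Clopper-Pearson intervals that cover counting error only. For these intervals the comparison value is the typical gene with at least 50 reads in both libraries together, which was 3.19-fold lower.

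Of the markers of cell types, those of skeletal muscle summed to 1.54 TPM in FuOXP NP and 128 TPM in Empty NP, and all 11 that passed the filter lay below the median gene, 8 of these being listed at 0 in the treated library. Markers of red cells and platelets summed to 78.7 and 41.2 TPM, leukocyte markers to 235 and 332 TPM, and fibroblast and endothelial markers to 61.8 and 127 TPM, in FuOXP NP and Empty NP in each case. Among the red-cell genes Hbb-bs was at 57.1 TPM in FuOXP NP and listed at 0 in Empty NP, and Alas2 was at 7.94 and 38.5 TPM. Epithelial markers of a carcinoma were scarce, at 4.94 and 6.56 TPM in all, and 6 of 10, Epcam, Krt8, Krt19, Cdh1, Cdx2 and Cldn4, were listed at 0 in both libraries. The part of these cell types in the results below was not tested.

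The factor transcripts were lower in FuOXP NP as deposited and, by most members, less so than the typical gene. They summed to 1517 TPM in FuOXP NP and 3170 TPM in Empty NP, or 0.152% and 0.317% of the totals, and Eef1a1 alone made up 51.2% and 46.5% of these sums. Of the 69 members, 58 reached the 1 TPM mean, 49 of them had at least 1 TPM in both libraries, and 4 were listed at 0 in 1 library. As deposited, 54 of the 58 were lower and 4 higher, beside 8789 lower and 699 higher of all 9488 genes that passed the filter. At a 2-fold difference 35 members were lower, beside 69.8% of all genes that passed the filter, and 1 was higher, beside 2.34%. The order of the members was largely kept, with a Spearman rho of 0.85 between the libraries over 58 genes, which share each library's depth.

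Relative to the median gene, 36 of the 58 members lay above and 22 below, with a median of 0.26. At least 2-fold above it were 10 members, or 17.2%, beside 12.6% of all genes. At least 2-fold below it were 2 members, or 3.45%, beside 12.2% of all genes. Because low TPM values are drawn towards 0 by the added 1 TPM, the comparison was repeated among genes whose mean reached 10 TPM. Of the 29 members at that level 16 lay above the median gene, or 55.2%, where 39.6% of all genes at that level did. Of these 29, 5 were at least 2-fold above it, where 7.75% of genes were, and 1 was at least 2-fold below it, where 19.3% of genes were. The sign of the overall median depended on the added value, and was -0.07 when 5 TPM was added.

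On recovered reads, with nothing added, 36 members had at least 20 reads in both libraries together. Their median was 2.48-fold lower in FuOXP NP. Among all named genes 3280 had as many reads, and those of them above 0 in both libraries had a median 3.42-fold lower. The counting interval lay wholly above the typical gene for 9 members, or 25%, beside 14.2% of genes. It lay wholly below for 1 member, or 2.78%, beside 16.9% of genes. The 9 were Eif3h, Eif3e, Eif1, Eif4a1, Eif2s2, Eef1b2, Eif2ak1, Eef1a1 and Eif5b, and the 1 was Eif4g1.

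**Figure D1:**
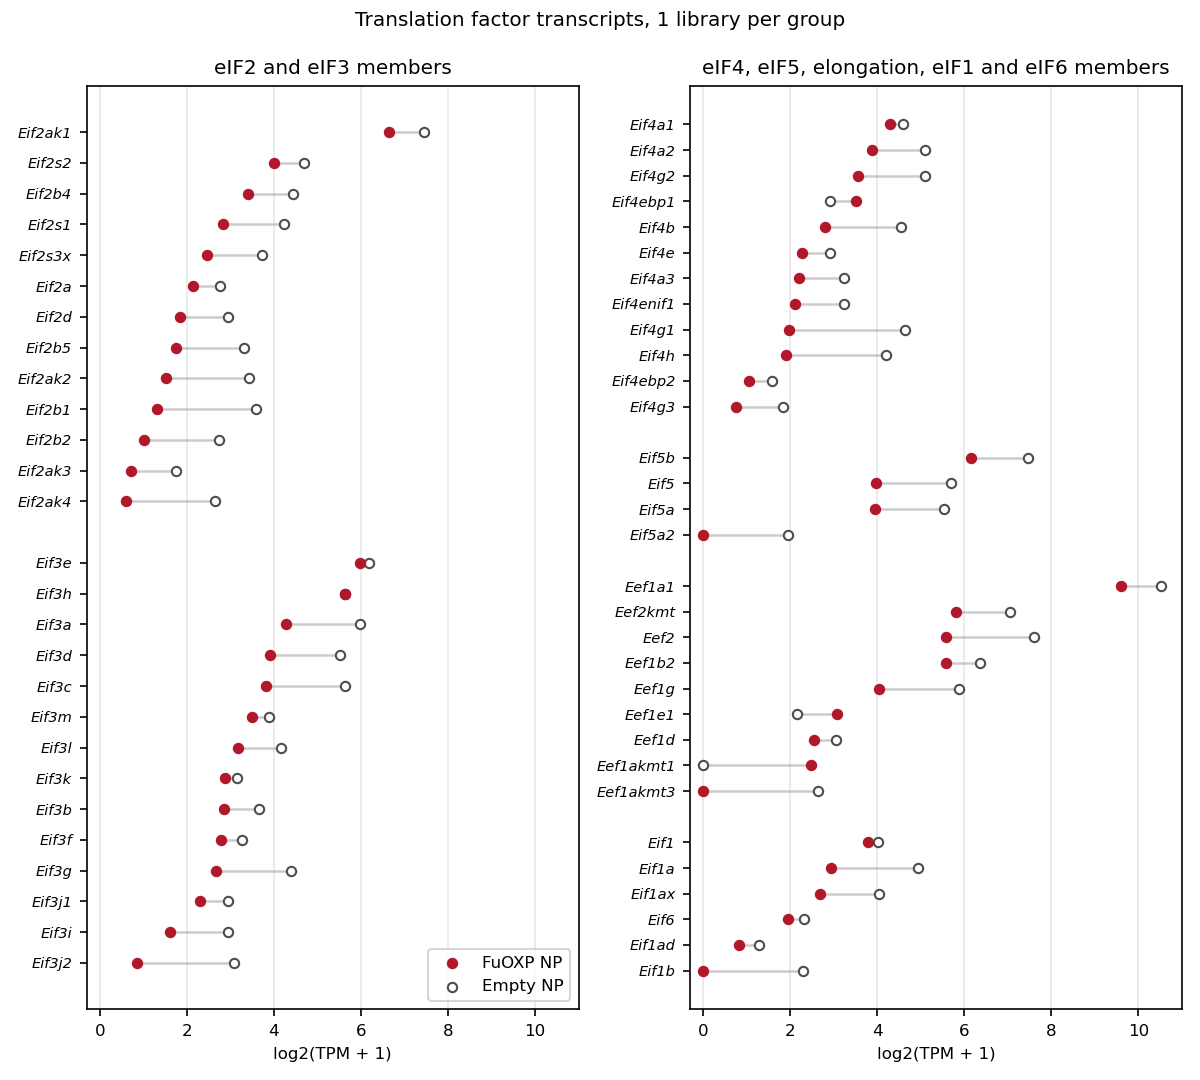
Level of each of the 58 members that reached a 1 TPM mean, as log2(TPM + 1), in FuOXP NP (filled) and Empty NP (open), 1 library each, ordered within a family by the FuOXP NP level. In 54 members the filled point lies left of the open one, and 8789 of all 9488 named genes at this mean were likewise lower. Eef1a1 stands highest in both libraries at 776 and 1474 TPM.

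The most abundant members were not all classical factors. In FuOXP NP the 5 highest were Eef1a1, Eif2ak1, Eif5b, Eif3e and Eef2kmt, and in Empty NP they were Eef1a1, Eef2, Eif5b, Eif2ak1 and Eef2kmt. Exons of Eif2ak1 overlap those of Aimp2 and Ankrd61, exons of Eif5b overlap Rev1, and exons of Eef2kmt overlap Alg1, all on the opposite strand. The sources used here do not say whether reads were assigned by strand, so reads of these genes cannot be told apart from those of their partners. In total 28 members share exon bases with another annotated gene.

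The 3 measured subunits of eIF2, which bring the initiator tRNA to the ribosome, lay above the median gene, by 0.75 for Eif2s2, 0.18 for Eif2s3x and 0.05 for Eif2s1. Eif2s2, the beta subunit of eIF2, stood at 15.0 TPM in FuOXP NP and 24.8 TPM in Empty NP, 1.66-fold lower (1.09 to 2.50). Its interval lay above the 3.19-fold of the typical gene. Eif2s1, the alpha subunit that stress kinases phosphorylate, was at 6.16 and 17.8 TPM, and Eif2s3x, the gamma subunit, at 4.50 and 12.1 TPM, in FuOXP NP and Empty NP. Both rest on fewer than 20 reads per library, 2.89-fold (1.28 to 6.81) and 2.70-fold lower (1.07 to 7.15), with intervals that hold the typical value, and 34.2% of the Eif2s3x windows are shared, mainly with a processed pseudogene. The Y-linked copy Eif2s3y was listed at 0 in both libraries.

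The exchange factor eIF2B, which recharges eIF2 with GTP, had 4 measured subunits, of which 3 lay below the median gene. Eif2b1 was at 1.48 TPM in FuOXP NP and 11 TPM in Empty NP on 2 and 8 reads, at -0.84 relative to the median gene. Eif2b2 was at 1.01 and 5.67 TPM on 1 and 3 reads, and Eif2b5, the catalytic subunit, at 2.38 and 8.88 TPM on 3 and 6 reads, in the same order of libraries. Eif2b4 went the other way, at 9.54 and 20.6 TPM, 0.41 above the median gene, and its exons overlap Snx17. Pooled over the family the reads were 22 in FuOXP NP and 34 in Empty NP, 2.89-fold lower (1.64 to 5.18), so a departure of eIF2B from the typical gene was not detectable at this depth. Eif2b3 had a mean just under the filter, at 0.878 and 1.09 TPM.

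The 4 kinases that phosphorylate eIF2 alpha split evenly around the median gene. Eif2ak1, the haem-regulated kinase, was at 99.3 TPM in FuOXP NP and 175 TPM in Empty NP on 295 and 278 reads, 1.76-fold lower (1.49 to 2.08). This is a narrower interval than for the other kinases and lies above the typical gene, with the exon overlap named above. Eif2ak3, the kinase of endoplasmic reticulum stress, was at 0.633 and 2.36 TPM on 2 and 4 reads. Eif2ak2, the kinase activated by double-stranded RNA, was at 1.87 and 9.75 TPM, 5.23-fold lower (1.78 to 18.5) on 5 and 14 reads. Eif2ak4, the kinase of amino acid shortage, was at 0.512 and 5.25 TPM, 10.3-fold lower (2.24 to 95.3) on 2 and 11 reads. Both intervals reach below 3.19-fold, so no departure of these kinases from the typical gene was detectable at this depth.

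Of the factors around eIF2, Eif2a and Eif2d, which deliver tRNA outside the main route, were at 3.43 and 2.59 TPM in FuOXP NP and 5.82 and 6.76 TPM in Empty NP. They lay 0.82 and 0.33 above the median gene. Eif5, the GTPase activator of eIF2, was at 14.6 TPM in FuOXP NP and 50.9 TPM in Empty NP, 3.49-fold lower (2.54 to 4.83), close to the typical gene. Eif5b, the subunit-joining GTPase, was at 69.6 and 175 TPM on 356 and 479 reads, 2.51-fold lower (2.18 to 2.89). Its interval lay above the typical gene, but 13% of its 75-base transcript windows also occur in transcripts of other genes, mainly Rev1.

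Among the start-codon factors, Eif1, which guards start-site choice, was near equal at 12.7 TPM in FuOXP NP and 15.3 TPM in Empty NP. On 14 and 9 reads it was 1.2-fold lower (0.458 to 2.98), with 15.3% of its windows shared with 14 other genes. The eIF1A genes, whose protein works beside eIF1, stood lower. Eif1a was at 6.63 and 29.7 TPM, 4.48-fold lower (2.39 to 8.81), and Eif1ax at 5.43 and 15.6 TPM, 2.86-fold lower (1.43 to 5.90), in FuOXP NP against Empty NP. The ratio of Eif1 to Eif1a within a library was 1.92 in FuOXP NP and 0.515 in Empty NP, for a pair chosen after its values were seen. Eif1ad rested on 1 read in each library. Eif1b was listed at 0 in FuOXP NP and at 3.88 TPM, about 1 read, in Empty NP.

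The eIF3 subunits did not move as 1 block. The complex is the scaffold on which the small ribosomal subunit, eIF4G and the other factors meet, and all 14 of its genes were measured, 9 above and 5 below the median gene with a median of 0.55, or -0.89 as deposited. Eif3h was at 48.7 TPM in FuOXP NP and 48.3 TPM in Empty NP on 32 and 17 reads, a ratio of 1.01 (0.543 to 1.94). Eif3e was at 61.9 and 71.6 TPM on 200 and 124 reads, 1.16-fold lower (0.918 to 1.46). These were the members closest to no difference among those with at least 20 reads, and both intervals lay above the typical gene. Both lie on the minus strand of chromosome 15, Eif3h between 51786558 and 51865523 and Eif3e between 43250058 and 43282719. This place is not particular to them. Eif3d, which stood at the typical difference, lies on the same strand of chromosome 15, and Eif3l on its plus strand. Eif3h shares 12.7% of its windows with a processed pseudogene, and Eif3e 2.17%.

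Eif3k, Eif3m and Eif3f pointed the same way on few reads. Eif3k was at 6.36 TPM in FuOXP NP and 7.92 TPM in Empty NP, Eif3m at 10.3 and 13.8 TPM, and Eif3f at 5.94 and 8.62 TPM, which placed them 1.16, 1.06 and 0.97 above the median gene. Their intervals, 0.364 to 3.91, 0.530 to 3.23 and 0.459 to 4.38-fold lower, all hold the typical value. The large subunits Eif3a and Eif3c, which with e, f, h, k, l and m form the core octamer of the complex, stood with the typical gene instead. Eif3a was at 18.4 and 61.9 TPM on 85 and 153 reads, 3.36-fold lower (2.56 to 4.43), and Eif3c at 13.0 and 48.7 TPM on 24 and 48 reads, 3.73-fold lower (2.24 to 6.37). The ratio of Eif3e to Eif3a was 3.36 within FuOXP NP and 1.16 within Empty NP, and that of Eif3h to Eif3c was 3.74 and 0.992. Ratios within a library do not depend on its scaling, but these pairs were chosen after their values were seen and are a description only.

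Of the subunits outside the octamer, 3 lay above and 3 below the median gene. Eif3b, which holds the peripheral module with Eif3g and Eif3i, was at 6.27 TPM in FuOXP NP and 11.7 TPM in Empty NP, 0.63 above the median gene. Eif3g was at 5.32 and 19.9 TPM, at -0.28. Eif3i was at 2.06 and 6.73 TPM and Eif3d, a cap-contacting subunit, at 14.0 and 44.8 TPM, 3.20-fold lower (2.08 to 5.0), which is the typical difference, though an antisense gene, Gm17638, overlaps Eif3d and 34.2% of its windows are shared. Eif3j1 and its near copy Eif3j2 were at 3.93 and 0.802 TPM in FuOXP NP and 6.72 and 7.49 TPM in Empty NP. Eif3j2 shares 87.4% of its windows with Eif3j1, so the split between these copies is uncertain. Eif3l, which belongs to the octamer and not to these subunits, was at 8.06 TPM in FuOXP NP and 16.9 TPM in Empty NP, 0.46 above the median gene.

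**Figure D2:**
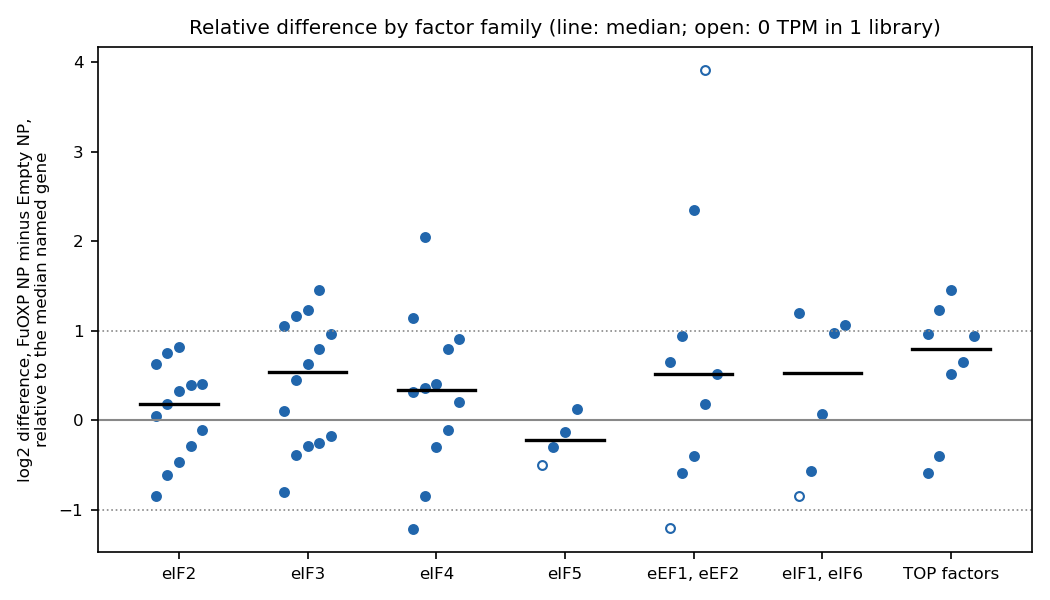
Log2 difference of each measured member, FuOXP NP minus Empty NP on log2(TPM + 1), relative to the median named gene, by family and for the 8 TOP factors. Lines are medians (0.18 for eIF2, 0.55 for eIF3, 0.34 for eIF4, -0.21 for eIF5, 0.52 for the elongation factors), dotted lines mark 2-fold, and open points are listed at 0 TPM in 1 library. The medians as deposited are all below 0, and relative to the median gene the sign changes for eIF2 (-0.10) and the elongation factors (-0.19) when 5 TPM is added, for eIF2 (-0.13) without genes that overlap, and for eIF5 (0.11) when 0.1 TPM is added.

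The cap-binding side held the member farthest below the median gene. Eif4g1, the main scaffold of eIF4F, on chromosome 16 between 20668313 and 20692884, was at 2.90 TPM in FuOXP NP and 23.7 TPM in Empty NP on 11 and 48 reads. It was 8.15-fold lower (4.17 to 17.4), wholly below the typical gene, and it was 1 of the 2 members at least 2-fold below the median gene. Its exons overlap Snord66 on the same strand. Without genes whose exons overlap another, the count of members at least 2-fold below was 0. Of the other scaffold genes, Eif4g2, which works without the cap-binding protein, was at 10.7 and 33.3 TPM on 57 and 95 reads, 3.11-fold lower (2.22 to 4.40), and Eif4g3 was at 0.690 and 2.58 TPM on 4 and 8 reads, 3.73-fold lower (1.0 to 16.9), which holds both the typical value and that of Eif4g1. The ratio of Eif4g1 to Eif4g2 was 0.271 in FuOXP NP and 0.711 in Empty NP, a 0.382-fold difference (0.166 to 0.825).

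Among eIF4F and its helpers the helicase gene Eif4a1 lay farthest above the median gene, by 1.14. It was at 18.5 TPM in FuOXP NP and 23.0 TPM in Empty NP on 42 and 28 reads, 1.24-fold lower (0.743 to 2.06), above the typical gene, although 25.4% of its windows also occur elsewhere, mainly in a processed pseudogene. Its paralogue Eif4a2 was at 13.6 and 33.4 TPM, 2.46-fold lower (1.58 to 3.85). The ratio of Eif4a1 to Eif4a2 was 1.36 in FuOXP NP and 0.690 in Empty NP, with an interval of the 1.97-fold difference that just reached 1 (0.99 to 3.93). Eif4a3, the paralogue of the exon junction complex, was at 3.6 and 8.39 TPM on 4 and 5 reads.

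The helicase stimulators were both below the median gene. Eif4h was at 2.75 TPM in FuOXP NP and 17.3 TPM in Empty NP, 6.30-fold lower (2.78 to 16.1) on 8 and 27 reads, and Eif4b at 5.94 and 22.2 TPM, 3.73-fold lower (1.90 to 7.67). Both intervals hold the typical 3.19-fold. Eif4e, the cap-binding protein itself, was at 3.81 and 6.52 TPM on 12 and 11 reads, 1.71-fold lower (0.684 to 4.24). Of its paralogues Eif4e2 was at 0.509 and 1.43 TPM, Eif4e3 at 0.759 TPM in FuOXP NP and listed at 0 in Empty NP, and Eif4e1b listed at 0 in both.

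The repressors that hold eIF4E lay above the median gene in the 3 that were measured. Eif4ebp1, whose protein blocks eIF4E until mTOR phosphorylates it, was higher as deposited, at 10.4 TPM in FuOXP NP and 6.49 TPM in Empty NP. On 12 and 4 reads its ratio was 1.61 (0.487 to 6.84), an interval that holds 1 but lies above the typical gene, whose ratio corresponds to 3.19-fold lower. Eif4ebp2 was at 1.07 and 1.99 TPM on 3 reads in each library, and Eif4enif1, which carries eIF4E into the nucleus, at 3.29 and 8.39 TPM. Eif4ebp3 was listed at 0 in both libraries, where a count of 0 allows up to 7.69 TPM in FuOXP NP and 14.4 TPM in Empty NP at 3 reads on its short exons.

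**Figure D3:**
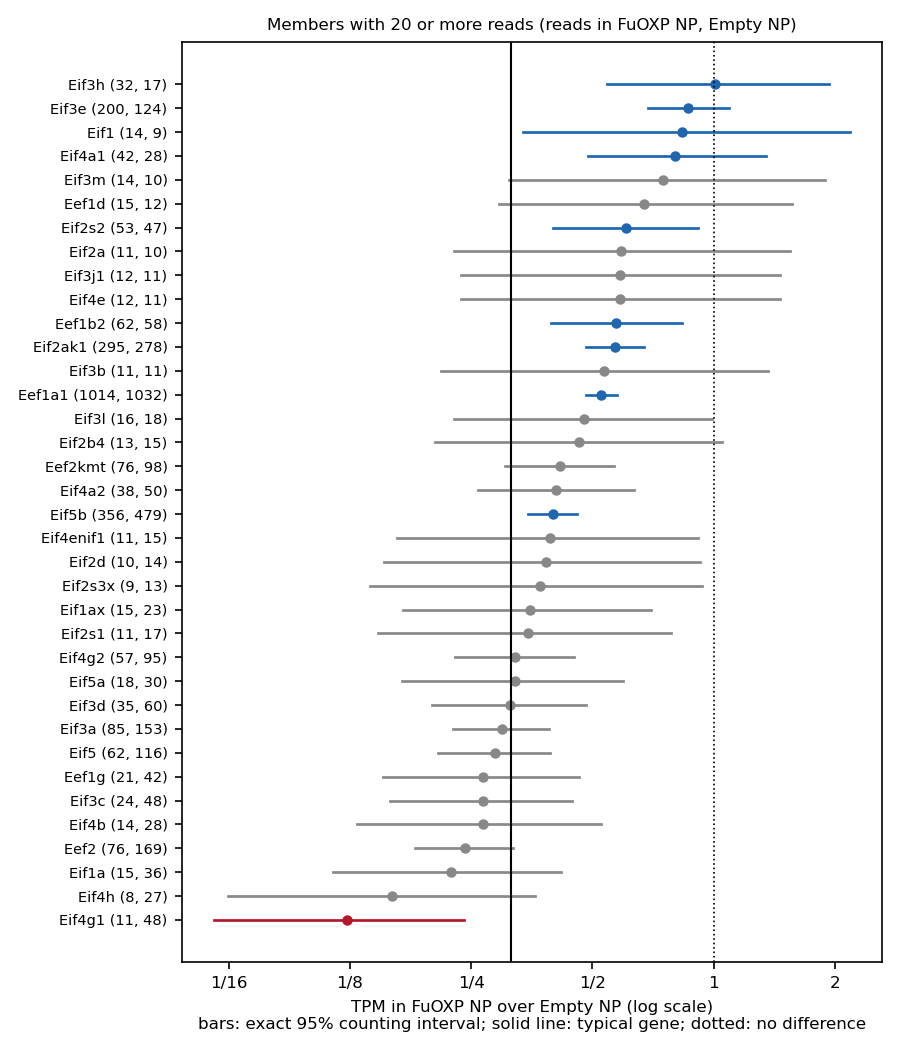
TPM in FuOXP NP over TPM in Empty NP on a log axis for the 36 members with at least 20 recovered reads, with exact 95% counting intervals and the reads in FuOXP NP and Empty NP after each symbol. The solid line is the typical gene, 3.19-fold lower; 9 members in blue lie wholly right of it and Eif4g1 in red lies wholly left of it.

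The elongation factors proper were dominated by Eef1a1, and their members differed among themselves. Eef1a1, on chromosome 9 between 78478449 and 78489151 (GRCm38, minus strand), was at 776 TPM in FuOXP NP and 1474 TPM in Empty NP on 1014 and 1032 reads, 1.90-fold lower (1.74 to 2.07) and so above the typical gene. Of its windows 26.6% occur in transcripts of 14 other genes, 15.4% in the processed pseudogene Gm13456. Eef2, the translocase on chromosome 10 from 81176631 to 81182498, was at 46.8 and 194 TPM on 76 and 169 reads, 4.15-fold lower (3.15 to 5.52), an interval that just holds the typical value. The ratio of Eef2 to Eef1a1 was 0.0603 in FuOXP NP and 0.132 in Empty NP, a pair chosen after its values were seen and so given without an interval.

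The exchange factor eEF1B recharges eEF1A. Eef1b2, its catalytic alpha subunit, was at 46.7 TPM in FuOXP NP and 81.6 TPM in Empty NP on 62 and 58 reads, 1.75-fold lower (1.2 to 2.54). Ndufs1 shares exon bases with it. Eef1g, the gamma subunit, was at 15.4 and 57.5 TPM on 21 and 42 reads, 3.73-fold lower (2.16 to 6.64), with 38% of its windows shared, mainly with a processed pseudogene. The ratio of Eef1b2 to Eef1g was 3.03 in FuOXP NP and 1.42 in Empty NP, a pair also chosen after its values were seen. Eef1d, the delta subunit, was at 4.85 and 7.25 TPM on 15 and 12 reads. Eef1a2, the isoform of muscle and neurons, was listed at 0 in both libraries. At 3 reads, a count of 0 allows up to 2.75 TPM in FuOXP NP and 5.13 TPM in Empty NP. The 128 TPM of muscle markers in Empty NP is a sum over 15 genes, 3 of which were also listed at 0 in both libraries.

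Most genes that modify or accompany the elongation factors rested on few reads, Eef2kmt being the exception. Eef2kmt, the methyltransferase of eEF2, was at 54.7 TPM in FuOXP NP and 132 TPM in Empty NP on 76 and 98 reads, 2.41-fold lower (1.77 to 3.29), and 17% of its windows are shared, mainly with Alg1. Eef1e1, a component of the multi-synthetase complex rather than an elongation factor, was higher as deposited, at 7.39 and 3.45 TPM on 12 and 3 reads, with a ratio of 2.14 (0.578 to 11.8). The methyltransferase genes Eef1akmt1 and Eef1akmt3 held the extremes of the family, at 4.56 TPM in FuOXP NP and listed at 0 in Empty NP for Eef1akmt1, and listed at 0 in FuOXP NP and at 5.24 TPM in Empty NP for Eef1akmt3. These rest on 2 and 4 reads. Set against the 3 reads that a count of 0 allows in FuOXP NP, the Empty NP value of Eef1akmt3 was 2.49-fold higher. The same held for Eif5a2, listed at 0 in FuOXP NP and at 2.83 TPM in Empty NP. Each Empty NP value rests on 4 reads, whose counting error this figure leaves out, so it is not a lower bound. Eef2k, the kinase that inhibits eEF2, had 2 reads in Empty NP and was listed at 0 in FuOXP NP.

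Of the remaining factors, Eif5a, the hypusine-carrying factor that relieves stalled ribosomes, was at 14.4 TPM in FuOXP NP and 44.9 TPM in Empty NP. It was 3.11-fold lower (1.68 to 5.93), the difference of the typical gene. Eif6, which keeps the ribosomal subunits apart, was at 2.82 and 3.95 TPM on 4 and 3 reads. Not measured above 0 in either library were Eef1a2, Eef1akmt2, Eif2s3y, Eif4a3l1, Eif4e1b and Eif4ebp3. The other 5 members under the filter, Eef1aknmt, Eef2k, Eif2b3, Eif4e2 and Eif4e3, had values in at least 1 library.

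The 8 factors listed as TOP transcripts, Eef1a1, Eef1b2, Eef1d, Eef1g, Eef2, Eif3e, Eif3f and Eif3h, lay above the median gene in 6 cases and below it in 2, Eef1g and Eef2. Their median was 0.80, or -0.64 as deposited, beside 0.19 for the other 50 measured members, of which 30 lay above. Of the 7 with at least 20 reads, 4 had intervals above the typical gene. This compares with 5 of 29 other members and 14.2% of 3280 genes with as many reads. More reads give narrower intervals, and Eef1a1 and Eif3e had 2046 and 324 reads in both libraries together. Whether the count belongs to the TOP class was not tested. Pooled, the TOP factors had 1429 reads in FuOXP NP and 1461 in Empty NP, 1.91-fold lower (1.77 to 2.05), and the other members 1431 and 1917 reads, 2.50-fold lower (2.33 to 2.68). The TOP reads are mostly those of Eef1a1. By the run at the annotated start, 9 of 13 measured members with it and 20 of 33 without it lay above the median gene, with medians of 0.40 and 0.19, and over all genes that passed the filter the medians were 0.03 and -0.01.

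**Figure D4:**
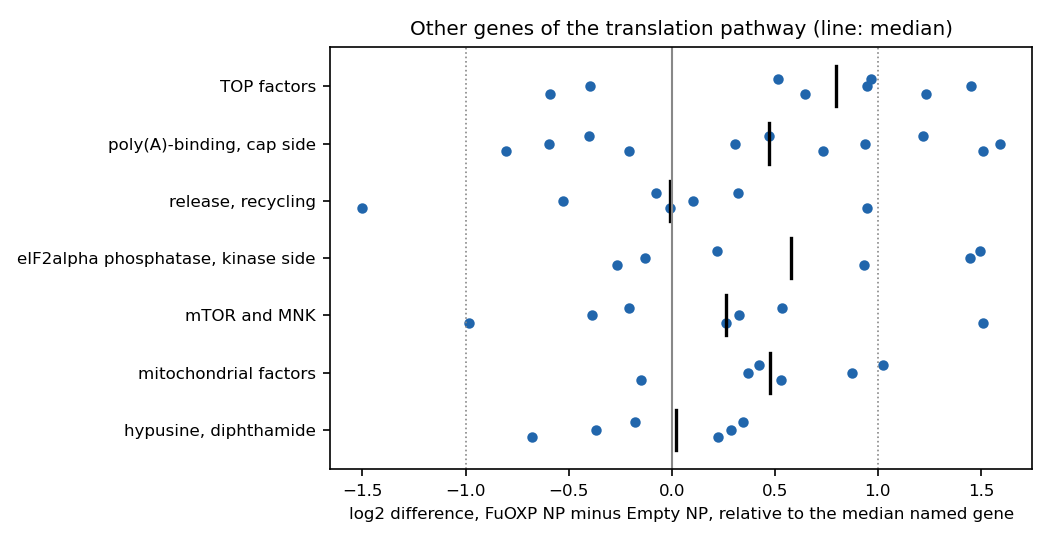
Log2 difference relative to the median named gene for the TOP factors and for other genes of the translation pathway that reached a 1 TPM mean, 1 point a gene, with list medians as lines and 2-fold as dotted lines. List medians run between -0.01 for release and recycling factors and 0.80 for the TOP factors.

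Other genes of the pathway spread on both sides of the median gene. Of 11 poly(A)-binding and cap-side regulators 7 lay above and 4 below, with a median of 0.47. Paip2, an inhibitor of poly(A)-binding protein, was slightly higher as deposited, at 15.7 TPM in FuOXP NP and 14.1 TPM in Empty NP on 23 and 11 reads. Pdcd4, which blocks eIF4A, was at 8.21 and 9.75 TPM, and Paip1, which bridges poly(A)-binding protein and eIF4A, at 5.52 and 8.24 TPM, in FuOXP NP against Empty NP. These 3 lay above the median gene, by 1.59, 1.22 and 0.94, on few reads. Larp4 also lay above it, by 0.74, on 50 and 46 reads. It was 1.72-fold lower (1.125 to 2.62), an interval above the typical gene, and its exons overlap those of another gene. Pabpc4 lay above it by 0.31 on 15 and 19 reads. These 2 and the 4 members below it are named after their values were seen. Pabpc1, the main poly(A)-binding protein gene, was at 29.1 TPM in FuOXP NP and 93.2 TPM in Empty NP on 88 and 151 reads, the typical difference. The helicase gene Ddx3x was at 10.1 and 44.5 TPM, Larp1, which binds TOP transcripts, at 3.35 and 14.6 TPM, and Paip2b, the paralogue of Paip2, at 3.01 and 18 TPM, at -0.59, -0.40 and -0.80 relative to the median gene. The 7 measured release, recycling and reinitiation factors had a median of -0.01, with 3 above and 4 below. Denr and Mcts1, partners in reinitiation, were at 5.95 and 3.64 TPM in FuOXP NP and 8.77 and 9.07 TPM in Empty NP, and Abce1, which splits ribosomes after termination, at 4.39 and 12.6 TPM.

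Of 6 measured phosphatase and kinase-side genes of eIF2 alpha, 4 lay above the median gene, with a median of 0.58. The 3 phosphatase genes lay above it, and of the 3 on the kinase side Impact lay above and Gcn1 and Dnajc3 below. Ppp1ca, a catalytic subunit, was at 41.5 TPM in FuOXP NP and 59.4 TPM in Empty NP, 1.43-fold lower (0.953 to 2.14), an interval above the typical gene. Ppp1r15b, the constitutive targeting subunit, was at 5.12 and 5.09 TPM on 15 and 8 reads, and Dnajc3, an inhibitor of the eIF2 alpha kinases, at 3.31 and 13.0 TPM. Ppp1r15a, the stress-induced targeting subunit, rested on 2 reads in FuOXP NP and 1 in Empty NP. Exons of Ppp1ca and Ppp1r15b overlap those of other genes. Of 7 measured mTOR and MNK pathway genes 4 lay above, with a median of 0.26. Tsc2, which restrains mTOR, was at 98.9 and 186 TPM, and Rps6kb1, the S6 kinase, at 2.64 and 11.9 TPM, 4.51-fold lower (2.23 to 9.71), which includes the typical value.

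The mitochondrial translation factors, which serve a separate ribosome, lay above the median gene in 5 of 6 cases, with a median of 0.48. Gfm2, a ribosome recycling factor, was at 123 TPM in FuOXP NP and 165 TPM in Empty NP on 690 and 494 reads. The initiation factors Mtif3 and Mtif2 were at 367 and 3.95 TPM in FuOXP NP and 771 and 8.29 TPM in Empty NP. Of 6 measured enzymes that make hypusine and diphthamide, the modifications of eIF5A and eEF2, 3 lay above and 3 below, with a median of 0.02 on 14 reads in FuOXP NP and 29 in Empty NP.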

How the data were processed

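The authors deposited TPM values, 1 column per group, for 53927 rows. Cuffdiff, Cufflinks 2.2.1, STAR 2.6.1a and the build GRCm38 appear in the submitters' processing notes, with no role or order. The columns summed to 1000649 in FuOXP NP and 1001107 in Empty NP. Rows without a symbol (22240), with a symbol turned into a date (26) and repeats of an adjacent pair of values (54) were left out of gene comparisons, and the highest row of a repeated symbol was kept, which left 26602 genes. Members and gene lists were chosen with earlier results of these data known.

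Exon lengths and overlaps came from GENCODE vM21 for 67 of 69 members. Recovered reads are TPM times exon length over the TPM that a single read gives per 1000 exon bases, 1.91 in FuOXP NP and 3.56 in Empty NP. Of genes under 10 reads, 80.8% and 80.9% came within 0.01 of a whole number in FuOXP NP and Empty NP. Where a member's exon length gave no whole number (20 of 58), the nearest whole reads with the measured ratio were taken, and each unit counted may stand for a read or a read pair. Named genes summed to 935334 reads in FuOXP NP and 448441 in Empty NP, far below the 73 M to 77 M reads in the labels, for a reason not given in the sources used here. Shared windows are the 75-base windows of a member's GENCODE transcripts found in transcripts of other genes on either strand. Ratios of 5 paralogue pairs were compared with exact conditional 95% intervals, not adjusted over the pairs, of which 1 leaves out 1. Another 7 pairs were chosen after values were seen, and their ratios are given without intervals. The genes given in full were the TOP factors, the paralogue groups, the extremes of each family at 5 TPM or more, and the most abundant members. The steps were tested on simulated data. Python 3.11.15, numpy 2.4.6, pandas 2.3.3, scipy 1.17.1 and matplotlib 3.10.9 were used.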

Additional observations from a re-analysis of the deposited data

Results flagged for a closer look

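Rows without a gene symbol, which no comparison of the factors used, made up 71.3% of the FuOXP NP total and 62.9% of the Empty NP total. Factor sequences among them, if any, were not analysed here.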

How the results depend on the processing

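Each of 7 medians and 2 counts of members was recomputed under 9 alternatives and 2 more that were chosen after seeing the data. Values are medians of the relative log2 difference for all members, then Eif2, Eif3, Eif4, Eif5, Eef and the TOP factors, and counts of members at least 2-fold above and below. Without centring the medians were -1.18, -1.26, -0.89, -1.10, -1.65, -0.93 and -0.64, with counts of 1 and 35. Without a filter, where the median of all genes is 0 because most are listed at 0, they were -1.03, -1.11, -0.89, -0.68, -1.65, -0.79 and -0.64, with counts of 1 and 35. Adding 5 TPM gave -0.07 for all members, -0.10 for Eif2, 0.08 for Eif3, 0.07 for Eif4, -0.58 for Eif5, -0.19 for Eef and 0.20 for the TOP factors, with 3 members above. Adding 0.1 TPM gave 0.48 for all members, 0.84 for Eif3, 0.11 for Eif5, 0.89 for Eef and 1.13 for the TOP factors, with counts of 18 and 6. At a mean of 5 TPM or more the values were 0.41 for all members, 0.92 for Eif3, 0.07 for Eif5, 0.72 for Eef and 1.0 for the TOP factors, with 1 member below. With 20 reads or more, Eif2 was 0.54, Eif3 0.77, Eif5 0.00 and all members 0.39, with counts of 6 and 1. Without genes whose exons overlap another, Eif2 was -0.13, Eef 0.96, the TOP factors 0.95 and all members 0.08, with 0 below. Without the 20 most abundant rows, rescaled and not centred, all members were at 0.14 with 8 below. Over genes above 0 in both libraries, Eef was 0.40, the TOP factors 0.68, and 1 member lay below. Without members that share over 10% of their windows, Eef was 0.80 and the TOP factors 0.95. The Eif5 median rests on 4 genes and changed sign. In all other cases, 42 of 99, the change stayed within a set limit. For a median this was the distance from the middle to either end of the log2 counting interval of its pooled reads. For a count it was 1.5 times. The cause of these changes was not tested. No paired analysis was possible because each group has 1 library, and leaving out replicates was not possible for the same reason. Depth limits all members under 20 reads, which are 22 of the 58 measured.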
